A study of Homo sapiens with 42 samples.

Results

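A375 is an established cutaneous melanoma cell line that carries an activating BRAF mutation. Of the 42 ATAC-seq samples of the series, the 6 whose titles begin with A375 were used here: 3 labelled FHT-1015 and 3 labelled DMSO, all with the genotype given as WT and all collected 4 h after the start of treatment. FHT-1015 is an inhibitor of both SMARCA4 and SMARCA2, and DMSO is the solvent that served as the negative control. The other 36 samples came from 6 further cancer lines under the same 2 treatments and are used only where A375 is set beside them. The replicates are labelled biological, and nothing in the labels says whether they were separate cultures, so that p-values measure the spread between these samples. All samples come from 1 line, which limits what they say of melanoma as such.

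SMARCA4 and SMARCA2 are the alternative ATPases of the BAF (SWI/SNF) complexes, which slide and evict nucleosomes and so keep many enhancers open. In ATAC-seq a transposase cuts open DNA, and a peak marks a stretch that was cut more often than its surroundings. In the melanocyte lineage SOX10 is the neural crest transcription factor that activates MITF, and MITF drives the pigment genes TYR, TYRP1, DCT, PMEL and MLANA. AP-1 factors (FOS and JUN dimers), which the MAP kinase pathway induces, bind many enhancers of melanoma cells.

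The sequences in which the lost accessibility can be shown are promoter windows, since RefSeq windows from 250 bases before to 50 after a gene's start (GRCh38.p14) were the sequence used here. The 5 windows below were called in all 3 DMSO and in none of the FHT-1015 samples, had a peak summit inside them in each DMSO sample and held the AP-1 letters TGANTCA, and they had the highest lowest rank of such windows. They belong to LAMB3, which encodes a chain of laminin 332 (chr1:209651325-209651624, minus strand), the antisense RNA EFCAB14-AS1 (chr1:46673786-46674085, plus strand), RIMBP2, a scaffold protein of the presynaptic active zone (chr12:130633871-130634170, minus strand), the uncharacterised LOC105369574 (chr11:130522217-130522516, plus strand) and the antisense RNA TCERG1L-AS1 (chr10:131094968-131095267, plus strand). Capitals mark the AP-1 letters, which read the same pattern on both strands.
LAMB3: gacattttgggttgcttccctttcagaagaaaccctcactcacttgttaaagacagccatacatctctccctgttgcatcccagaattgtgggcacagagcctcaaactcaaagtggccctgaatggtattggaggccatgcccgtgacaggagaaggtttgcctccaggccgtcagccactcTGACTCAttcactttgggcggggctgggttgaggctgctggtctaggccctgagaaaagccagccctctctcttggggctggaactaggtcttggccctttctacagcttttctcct
EFCAB14-AS1: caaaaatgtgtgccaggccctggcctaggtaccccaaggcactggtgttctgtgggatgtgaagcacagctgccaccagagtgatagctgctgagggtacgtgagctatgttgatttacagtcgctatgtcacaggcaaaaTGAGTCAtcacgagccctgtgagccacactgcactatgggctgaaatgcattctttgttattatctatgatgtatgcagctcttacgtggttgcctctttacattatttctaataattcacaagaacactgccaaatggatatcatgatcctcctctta
RIMBP2: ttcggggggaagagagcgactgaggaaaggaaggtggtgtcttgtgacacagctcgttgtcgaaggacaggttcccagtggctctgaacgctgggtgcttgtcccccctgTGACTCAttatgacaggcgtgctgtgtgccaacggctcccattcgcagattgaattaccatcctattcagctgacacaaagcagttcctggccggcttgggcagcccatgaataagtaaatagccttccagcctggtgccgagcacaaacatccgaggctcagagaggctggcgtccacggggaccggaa
LOC105369574: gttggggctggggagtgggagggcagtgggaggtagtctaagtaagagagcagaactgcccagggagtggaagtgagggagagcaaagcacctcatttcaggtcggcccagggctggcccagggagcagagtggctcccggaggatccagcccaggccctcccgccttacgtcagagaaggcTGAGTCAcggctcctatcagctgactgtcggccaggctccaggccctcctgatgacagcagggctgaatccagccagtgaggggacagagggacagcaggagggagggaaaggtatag
TCERG1L-AS1: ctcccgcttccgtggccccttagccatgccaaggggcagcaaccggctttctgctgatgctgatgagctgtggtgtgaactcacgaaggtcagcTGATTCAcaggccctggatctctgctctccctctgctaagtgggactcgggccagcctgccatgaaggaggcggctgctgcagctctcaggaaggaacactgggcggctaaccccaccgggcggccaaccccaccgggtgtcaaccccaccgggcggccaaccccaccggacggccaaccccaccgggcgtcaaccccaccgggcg

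The windows of 2 of the starts of MITF are shown because they behaved unlike each other. The first (chr3:69739214-69739513, plus strand) was called in all 6 samples and the other, far downstream in the gene (chr3:69936342-69936641, plus strand), in 1 DMSO sample only. Capitals mark the SOX letters ACAATG in the first window. The downstream window holds neither ACAATG nor ACAAAG on either strand. Only these 2 forms were searched, so the window can hold other forms of a SOX site. Another start window of MITF, not printed (chr3:69763561-69763860, plus strand), was called in no A375 sample and holds the SOX letters 1 time. The SOX letters therefore did not go with calls over these windows.
MITF first start: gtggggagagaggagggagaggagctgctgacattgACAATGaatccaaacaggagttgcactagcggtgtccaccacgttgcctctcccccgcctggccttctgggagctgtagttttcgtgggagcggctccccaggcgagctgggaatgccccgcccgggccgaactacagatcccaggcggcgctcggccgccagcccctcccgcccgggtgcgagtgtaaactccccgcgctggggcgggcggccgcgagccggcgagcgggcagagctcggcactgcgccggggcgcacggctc
MITF downstream start: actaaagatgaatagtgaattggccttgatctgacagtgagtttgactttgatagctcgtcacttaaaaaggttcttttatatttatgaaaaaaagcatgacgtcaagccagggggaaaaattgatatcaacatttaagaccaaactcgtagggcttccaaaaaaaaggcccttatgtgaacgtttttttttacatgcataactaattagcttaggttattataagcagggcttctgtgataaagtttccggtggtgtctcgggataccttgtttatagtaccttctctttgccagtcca

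The 6 lists held 154375 to 233074 peaks each. Each summit in an interval counted as a peak, and every list went down to a −log10 p of 2, a lenient limit. Peaks with −log10 q of at least 5 are called strict here and made up 14.5% to 33.0% of a list. The files give no read depth. A background pileup was therefore solved from the deposited fold and p of each peak as a stand-in for depth: it was 0.901, 0.679 and 0.606 reads per position in DMSO replicates 1, 2 and 3 and 1.35, 1.27 and 0.707 in FHT-1015 replicates 1, 2 and 3. The groups overlapped in it (exact permutation test, two-sided, p = 0.2; 3 against 3 samples cannot give less than 0.1). No 2 lists were copies, with at most 0.0762% identical intervals. The shared fraction of regions (Jaccard index) was 0.239 to 0.384 for the 6 pairs within a group and 0.232 to 0.338 for the 9 pairs across groups, so that the lists of a group were little more alike than those of different groups.

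At the markers of the melanocyte lineage the data went partly with the label. A gene's rank in a sample is the percentile of −log10 p, within that sample's own list, of the strongest interval within 1 kb of either end of the gene, with 100 the strongest and 0 no interval. MITF ranked 97.8, 97.0 and 97.2 in DMSO and 97.2, 97.0 and 99.2 in FHT-1015. SOX10 ranked 68.6, 67.0 and 50.5 in DMSO and 79.4, 92.6 and 86.0 in FHT-1015. All 3 FHT-1015 samples were above all 3 DMSO samples at SOX10, while MITF was near the top of every list. PAX3, another factor of the lineage, was called in all 6 samples. PMEL ranked 76.0, 83.9 and 78.1 in DMSO and 93.6, 90.6 and 97.1 in FHT-1015, higher in every treated sample. TYRP1 was at 0 in all 6, DCT was called in 2 and TYR in 3 of the 6. MLANA ranked 77.9, 58.3 and 68.4 in DMSO and 0, 47.9 and 14.6 in FHT-1015. MITF and PMEL ends were also called in every DMSO sample of all 6 other lines, so an interval there is no sign of lineage. Ends of SOX10 and PAX3 were called in all 3 DMSO samples of 92-1, a uveal melanoma line, and of RD, a rhabdomyosarcoma line. SOX10 ends were called in 0 DMSO samples of 22RV1, HCT116 and MV411. Of the markers of other cells, COL3A1 was at 0 in all 6 samples, KRT14, EPCAM and MYOG were at 0 in the 3 DMSO samples, and KRT14 and EPCAM were called in FHT-1015 replicates 2 and 3. CD3E, a T cell gene, ranked 92.0, 97.4 and 93.0 in DMSO and 7.51, 85.1 and 82.6 in FHT-1015, lower in every treated sample. An interval at a gene end can belong to a neighbouring gene.

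The number of peaks did not separate the groups. The lists held 184466, 227265 and 181865 peaks in DMSO replicates 1, 2 and 3 and 154375, 233074 and 202680 in FHT-1015 replicates 1, 2 and 3. Strict peaks numbered 60943, 65602 and 26365 in DMSO and 27964, 67237 and 32095 in FHT-1015. DMSO replicate 3 was low and FHT-1015 replicate 2 high among the strict counts, and the groups overlapped in both counts. The mean was 50970 ± 21436 strict peaks in DMSO and 42432 ± 21581 in FHT-1015 (SD, n = 3; exact permutation test, two-sided, on log2 counts, p = 1).

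The place of the strongest peaks did separate them. Of the 10000 strongest peaks of a list, 53.4%, 55.6% and 58.8% lay within 1 kb of an end of a protein-coding gene in DMSO replicates 1, 2 and 3, and 74.1%, 66.0% and 73.2% in FHT-1015 replicates 1, 2 and 3. Every FHT-1015 sample was above every DMSO sample. The means were 55.9% ± 2.73 and 71.1% ± 4.49 (SD, n = 3), a difference of 15.2 percentage points with p = 0.1 in the exact permutation test, the smallest value it can give. With all lists thinned to one background the difference was 14.3 points and the groups stayed apart. Among strict peaks the share was 36.4%, 36.1% and 47.6% in DMSO and 62.1%, 43.2% and 58.8% in FHT-1015, where the groups overlapped (exact p = 0.2). In thinned lists as a whole the difference was 17.0 points and the groups were apart. The thinned lists were not of equal length, with 40413, 56343 and 28157 peaks in DMSO and 13716, 37498 and 28758 in FHT-1015. Over whole deposited lists the shares were 20.2%, 16.8% and 15.9% against 22.6%, 19.4% and 17.4%, also overlapping (exact p = 0.4). The gene table gives no strand, so that a gene end can be a start or a 3′ end.

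The strongest intervals were also wider after FHT-1015. Their median width was 1104, 1081 and 948 bp in DMSO and 1162, 1278 and 1170 bp in FHT-1015, with no overlap (mean difference 159 bp, exact permutation p = 0.1, the smallest possible). Away from gene ends the widths were 954, 910 and 796 bp against 1021, 1170 and 1044 bp, and the groups were apart. Within 1 kb of gene ends they were 1250, 1223 and 1071 bp against 1212, 1332 and 1212 bp, and the groups overlapped. Background pileup was also higher on average in FHT-1015, at 1.11 ± 0.349 against 0.728 ± 0.154 (SD, n = 3), and its part in the widths was not tested.

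**Figure D1:**
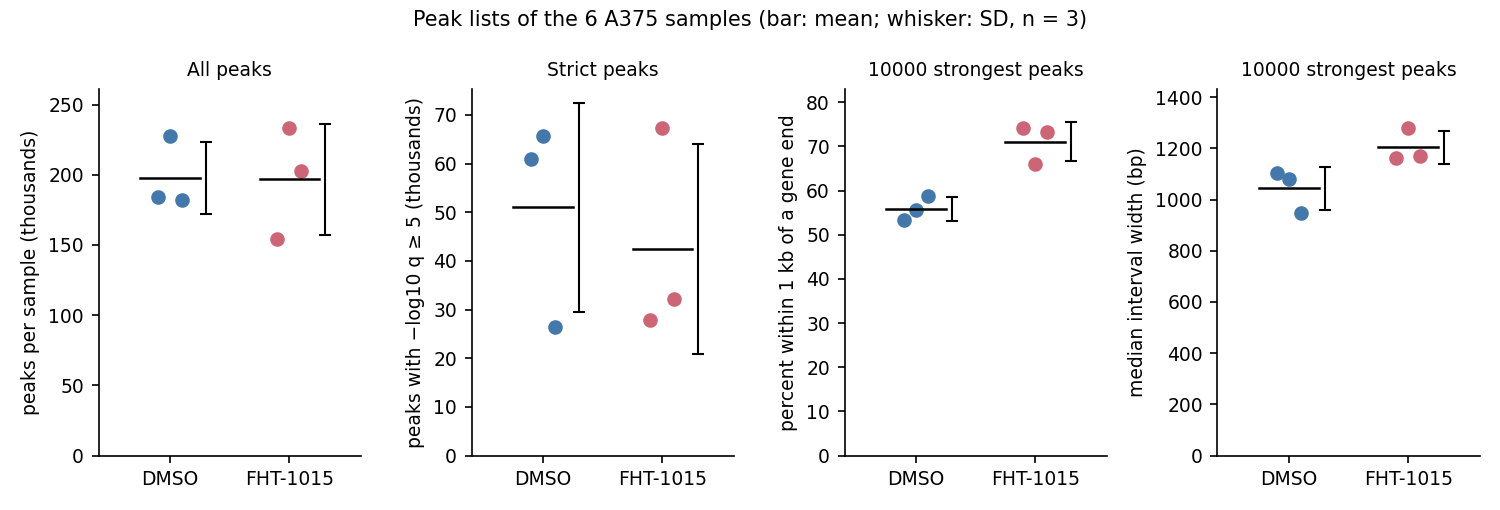
Each point is 1 of the 6 A375 samples, with the group mean as a bar and the SD (n = 3) as a whisker. From left to right the panels give all peaks and strict peaks as counts, the percent of the 10000 strongest peaks within 1 kb of a gene end, and the median width of the intervals of those peaks in bp. The groups overlap in the first 2 panels and are apart in the last 2, for example 53.4% to 58.8% in DMSO against 66.0% to 74.1% in FHT-1015.

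To compare positions, windows of 500 bp were set around summits over all 42 lists, and a sample had a region where an interval overlapped it by at least 100 bp. A region is lost when all 3 DMSO and no FHT-1015 samples had it, gained in the reverse case and kept when all 6 had it. Of 480577 regions called in any A375 sample, 65005 were called in all 3 DMSO samples and 47310 in all 3 FHT-1015 samples. Among the former 5862 were lost, which is 9.02%, and among the latter 1547 were gained, which is 3.27%. These are the counts that the rule itself fixes, and a single region cannot be tested with 3 calls against 3. Kept regions numbered 38126. Most regions rested on a single sample: 140597 were called in 1 DMSO sample alone and 161998 in 1 FHT-1015 sample alone. With strict peaks in both groups 1896 regions were lost, 7.54% of those strict in all 3 DMSO samples. In the same way 261 were gained, 1.13% of those strict in all 3 FHT-1015 samples. Here lost means without a strict peak: 1855 of the 1896 had an FHT-1015 interval of any strength within 1 kb. All 261 gained regions had a DMSO interval within 1 kb.

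With every list shortened to its 154375 strongest peaks, 6080 regions were lost and 1206 gained. In lists thinned to a common background 2516 were lost and 179 gained. Thinned lists held 28157 to 56343 peaks in DMSO and 13716 to 37498 in FHT-1015, the shortest being FHT-1015 replicate 1. The part of list length in these counts was not tested. Leaving out a sample loosens the rule and raised the counts. The balance between them reversed only without FHT-1015 replicate 1, with 6818 regions lost and 8931 gained. In the other 5 cases lost regions remained the more numerous, from 7679 lost and 6649 gained without FHT-1015 replicate 3 to 14544 and 1986 without DMSO replicate 3.

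**Figure D2:**
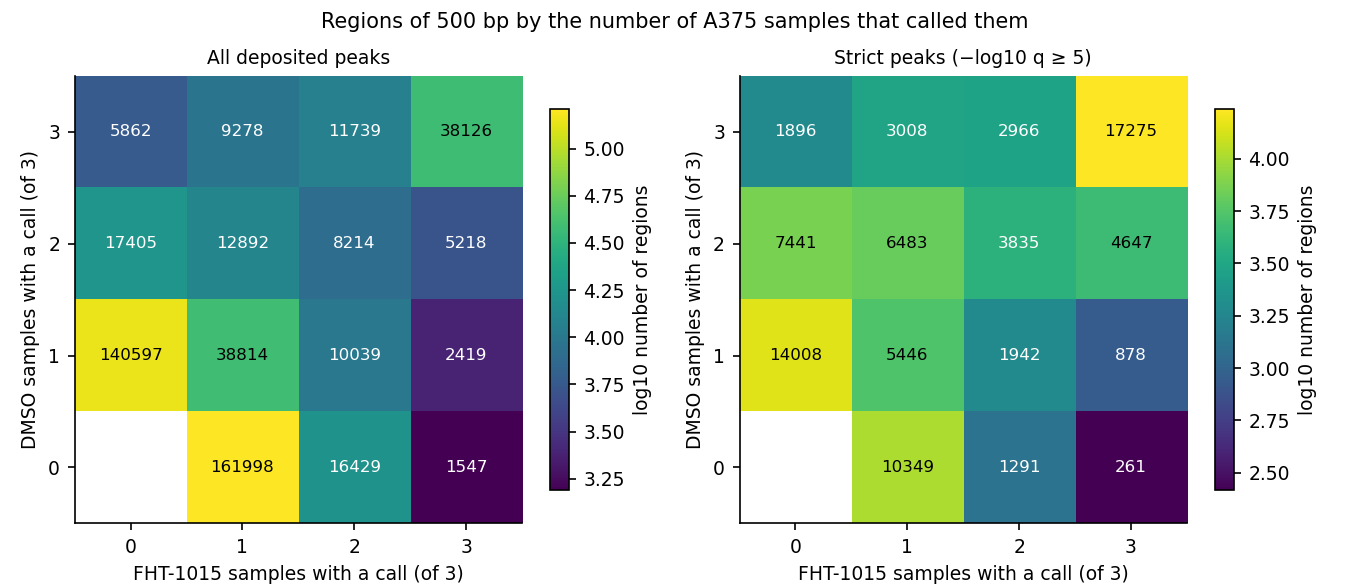
Each cell gives the number of 500-bp regions called in 0 to 3 DMSO samples (vertical axis) and 0 to 3 FHT-1015 samples (horizontal axis), for all deposited peaks on the left and strict peaks on the right, with colour on a log10 scale. Lost regions stand at the top left (5862 and 1896), gained regions at the bottom right (1547 and 261) and kept regions at the top right (38126 and 17275).

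Lost regions lay far from gene ends. The median distance to the nearest end of a protein-coding gene was 51.2 kb for lost, 16.6 kb for gained and 2.48 kb for kept regions, and 35.9 kb for all regions called in A375. Within 1 kb of a gene end lay 201 of the 5862 lost regions, or 3.43% (95% exact binomial interval 2.98 to 3.93), 13.6% of the gained (12.0 to 15.5) and 44.9% of the kept (44.4 to 45.4), beside 7.86% of all regions. The intervals cover counting error only, and neighbouring regions are not independent. Over 100 kb from any gene end lay 33.6% of lost regions, against 18.1% of gained and 12.6% of kept regions. The share inside a gene body differed less, at 45.6% of lost, 49.6% of gained and 51.1% of kept regions. Seen from the other side, 12.3% of the 45878 regions over 1 kb from a gene end that all 3 DMSO samples had were lost, and 1.05% of the 19127 within 1 kb. For gained regions those shares were 4.78% and 1.09%.

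Weak regions were lost more often than strong ones, and the difference by place held at each strength. Regions called in all 3 DMSO samples were put into 4 equal classes by their lowest rank over those samples. In the weakest class 26.9% of the distal and 7.52% of the gene-end regions were lost. The shares were 11.01% and 1.69% in the second class, and 2.36% and 0.330% in the class above it. In the strongest class 0.336% of 6843 distal regions were lost, which is 23 regions, and 0.0743% of 9420 gene-end regions, which is 7. Median ranks of the lost regions in the 3 DMSO samples were 52.4, 60.7 and 58.2, against 90.1, 92.1 and 89.6 for kept regions.

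**Figure D3:**
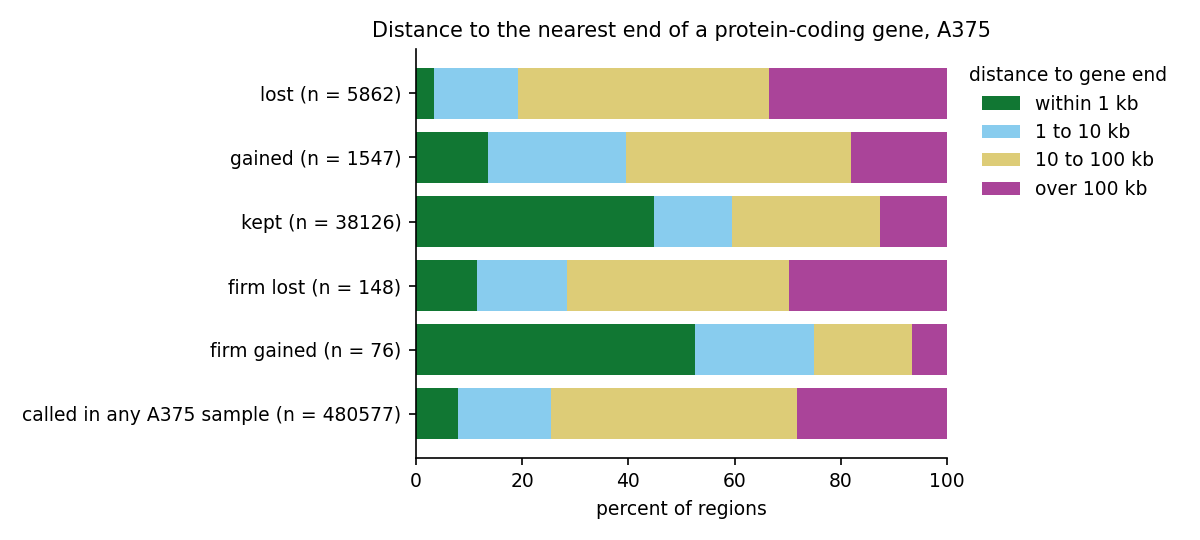
Bars show the percent of regions in 4 classes of distance to the nearest end of a protein-coding gene, for each class of A375 regions with its number. Lost regions have 3.43% within 1 kb and kept regions 44.9%, while the 76 firm gained regions have 52.6% there.

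Few regions passed from a strict peak to no interval. Firm lost regions, with a strict interval in all 3 DMSO samples and none of any strength after FHT-1015, numbered 148, which is 0.589% of the regions strict in all 3 DMSO samples. Firm gained regions numbered 76, which is 0.33% of those strict in all 3 FHT-1015 samples. Many of these windows sat on the edge of a wide interval rather than at a summit of their own. An FHT-1015 interval lay within 1 kb of 107 of the 148 firm lost regions, and a DMSO interval within 1 kb of all 76 firm gained regions. Of the firm gained regions, 3 had a strict summit of their own in all 3 FHT-1015 samples, against 85 of the firm lost regions in DMSO. With merged intervals in place of fixed windows, 62 firm lost and 2 firm gained regions were found.

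Of the 10 strongest firm gained windows, 8 were within 1 kb of some gene end, and all 10 had a DMSO interval within 1 kb. The first was at RAP2B, a small GTPase (chr3:153162648-153163147), where the interval ranked 99.88, 99.95 and 99.89 in the 3 FHT-1015 samples. Others were at SEC23B of the COPII coat (chr20:18506848-18507347) and at SLC2A1, the glucose transporter GLUT1 (chr1:42959256-42959755). Further windows were nearest to RGMB, TUT7, CHD1L, SLC25A44, ZNF248 and USP31. The 10 windows lay in intervals that ranked at least 97.5 in each FHT-1015 list and had no call in any DMSO list. Among the 20 strongest firm lost windows 19 had an FHT-1015 interval within 1 kb, and 6 lay within 1 kb of a gene end. They included windows at SECISBP2, which serves selenoprotein synthesis (chr9:89319056-89319555), RNASEH1 (chr2:3558889-3559388), NUF2 of the kinetochore (chr1:163322291-163322790), ABCF2-H2BK1 (chr7:151226408-151226907) and TMEM123 (chr11:102453115-102453614). At FBXW7, a ubiquitin ligase subunit, one window was lost (chr4:152536835-152537334), while a promoter window of the same gene (chr4:152535192-152535491) was gained, with ranks of 26.0, 94.7 and 95.03 in FHT-1015, and had a DMSO interval within 1 kb. Windows farther from gene ends were found inside NFATC2 (chr20:51457479-51457978), a calcium-regulated transcription factor, and inside CADM1 (chr11:115279709-115280208), an adhesion molecule. The others were inside ANKRD13C, PEA15, GPR55, GFUS, BIN3 and ST3GAL4 and outside genes nearest to MYT1L, SEMA6A, ABCC12, TMEM132C, EGFR and ANKK1. The lowest rank of any of the 20 in a DMSO list was 90.7, at ANKK1.

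Next to EGFR, the receptor that undifferentiated melanoma cells often carry, one firm lost window lay 42.9 kb beyond the high-coordinate end of the gene (chr7:55254284-55254783). Its interval ranked 99.9, 99.2 and 97.7 in DMSO, with −log10 q of 60.5, 43.0 and 13.9, and no FHT-1015 interval overlapped the window. All 3 FHT-1015 samples had an interval within 1 kb of it. Inside EGFR, at 68.1 kb from its low-coordinate end (chr7:55086890-55087389), an interval that was strict in all DMSO samples ranked 97.4, 90.9 and 97.4 in DMSO and 77.6, 66.5 and 67.3 in FHT-1015, lower in every treated sample. Of 21 regions around EGFR that all DMSO samples had, 14 were kept, 2 were lost and 2 further regions were gained. The promoter window of the first EGFR start was kept, with ranks of 83.2, 90.0 and 93.7 in DMSO and 76.2, 89.6 and 83.6 in FHT-1015.

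A stricter reading, chosen after these values were seen, asked for a strict summit inside the window in all 3 DMSO samples and no FHT-1015 interval within 1 kb. It left 40 firm lost regions and 0 firm gained regions (without the strict condition, 2832 lost and 394 gained). Of the 40 regions 30 lay over 10 kb from any gene end and 1 within 1 kb, 21 were inside a gene, and the median distance was 47.5 kb. The strongest lay 1.41 kb outside ANKK1, the neighbour of the dopamine receptor gene DRD2 (chr11:113401573-113402072). Its interval ranked 92.5, 97.1 and 90.7 in DMSO, with a deposited fold over background of 7.72, 10.8 and 5.41. None of the FHT-1015 samples had an interval there. A region inside KCNK5, a potassium channel gene (chr6:39193367-39193866), ranked 91.7, 89.5 and 90.2 in DMSO, and in 92-1 was likewise called in its 3 DMSO lists and absent from its FHT-1015 lists, 92-1 being a uveal melanoma line. In MV411, a leukaemia line, the same region was called in all 6 samples. A region inside RNF144A, a ubiquitin ligase gene (chr2:7007846-7008345), ranked 87.8, 95.8 and 94.1, and one inside TRIB2, a pseudokinase gene (chr2:12722072-12722571), ranked 85.6, 90.6 and 94.8. These 4 ranked at least 85.6 in every DMSO list and were absent from every FHT-1015 list. Further regions of the set lay inside TYW1B, MFAP3L, AFF2, PRKCE, CPLX2 and ESYT3, and outside genes nearest to TMEM132C, ZC3H11B, NRXN3, NYAP2 and GNAQ. In 12 of the 40 regions all 3 DMSO samples of 92-1 had a call as well, beside 874 of all 5862 lost regions. In 20 of the 40 no other line had calls in all its DMSO samples. That held for 60.7% of all lost regions and for 30.25% of all regions called in all 3 A375 DMSO samples.

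Lost regions were scattered over many genes. A region was given to the genes that contain it or, outside genes, to the nearest one, and of 15655 genes with a region called in all DMSO samples 3612 had at least 1 lost region, 127 of them 5 or more. The shares below stand beside 9.02% lost over all regions and 12.3% over distal ones. The genes with the most lost regions were mostly long. TENM2, a neuronal adhesion gene of 1285 kb, had 11 lost of 51 regions called in all DMSO samples. KLHL29 had 10 of 42, ST3GAL1, a sialyltransferase gene, 10 of 38, NAALADL2 9 of 13, NCAM1, a neural adhesion gene, 9 of 24, KCNIP4 9 of 30 and LOC124900173 9 of 23. In NAALADL2 69.2% of the regions were lost, the highest share among the genes named here, and 3 were kept. CDH11 (9 of 37) and GPC5 (9 of 41) had as many as the last of these. ID2, the shortest, spans 2.41 kb and encodes an inhibitor of basic helix-loop-helix factors, and 9 of the 31 regions nearest to it were lost. Its promoter window was kept, with ranks of 93.9, 99.7 and 92.8 in DMSO and 97.6, 95.8 and 98.3 in FHT-1015. By chromosome the lost share ran from 2.06% on chromosome 19 to 14.0% on chromosome 18.

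Around MITF, in the gene and 100 kb on each side, 25 regions were called in all 3 DMSO samples, of which 6 were lost and 9 kept, and none was gained, beside 7.94% lost within 100 kb of any protein-coding gene. All 6 lost regions lay over 1 kb from a gene end, and 12.3% of all regions at such distances were lost. Among regions strict in all DMSO samples, 5 of 12 were lost from the strict FHT-1015 lists, beside 7.54% of all such regions. The 7.54% takes in regions within 1 kb of a gene end as well. Distances below count from the low-coordinate end of MITF. The region at 81.8 kb (chr3:69821052-69821551), inside the gene, ranked 78.9, 76.1 and 89.6 in DMSO and was called in all 3 DMSO samples and 1 FHT-1015 sample of 92-1. The region at 67.6 kb (chr3:69806773-69807272) ranked 87.8, 53.1 and 45.1, and that at 30.9 kb (chr3:69770082-69770581) ranked 20.3, 56.6 and 59.1. No FHT-1015 sample had any of these 3, but 1 FHT-1015 sample had an interval within 1 kb of each of the first 2, and none did near that at 30.9 kb. The region at −62.7 kb (chr3:69676475-69676974) was the shoulder of intervals ranked 85.9, 81.2 and 86.4, and 2 FHT-1015 samples had an interval beside it. The lost region at 197 kb (chr3:69936134-69936633) overlapped the downstream start window printed above and was weak, at ranks of 56.9, 51.5 and 1.98. The sixth, at 228 kb (chr3:69967081-69967580), ranked 51.0, 0.896 and 77.3. So 1 of the 6 stood with no FHT-1015 interval within 1 kb. A further 3 regions were strict in all DMSO and in no FHT-1015 samples but kept a weaker call, at −63.4, 261 and 301 kb. The window at −63.4 kb lay on the same DMSO intervals as the lost window at −62.7 kb. Both are among the 5 of 12, so these intervals are counted more than once there. The region at 301 kb ranked 91.0, 94.2 and 95.3 in DMSO and 59.2, 70.6 and 78.5 in FHT-1015. There all 3 FHT-1015 samples were below all 3 DMSO samples.

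**Figure D4:**
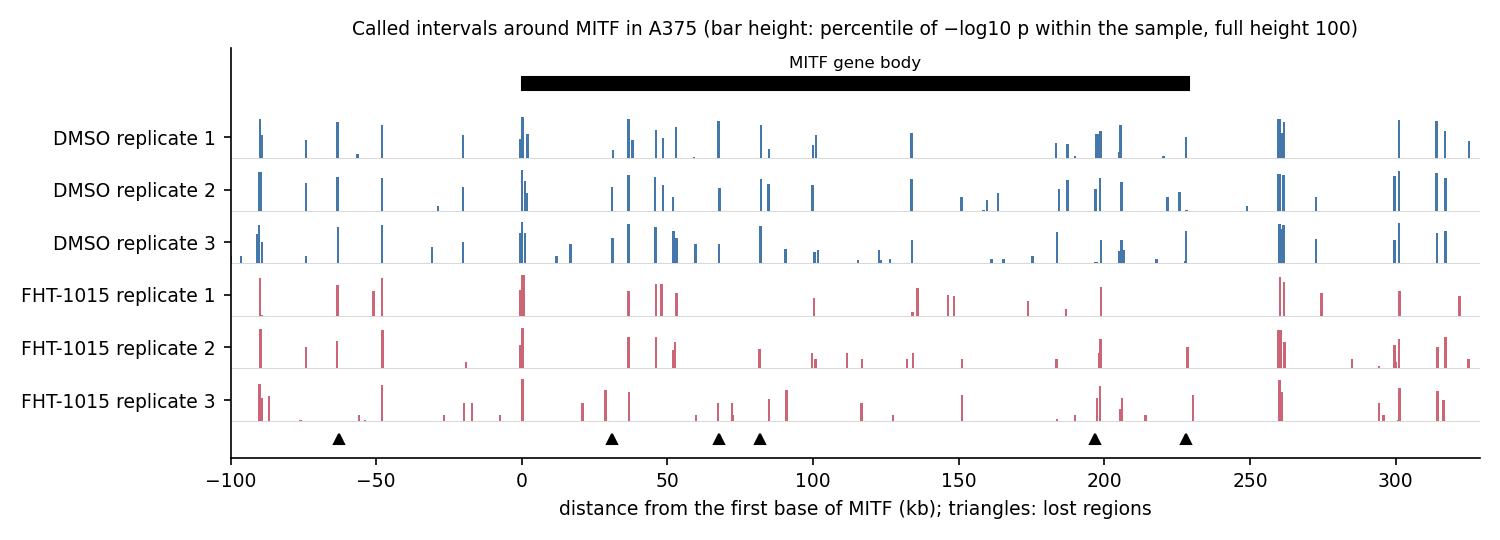
Rows are the 6 A375 samples and the horizontal axis is the distance in kb from the first base of MITF, whose body is the black bar. Each mark is a called interval, drawn at least 0.8 kb wide, with its height the percentile of −log10 p in its own list. Triangles mark the 6 lost regions. Intervals at the first start stand high in all 6 rows, between 97.0 and 99.2.

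SOX10 differed in its counts: of 19 regions around it called in all DMSO samples 0 were lost, 15 were kept and none was gained. Over the 10 melanocyte factors, 18 of 158 regions were lost (11.4%), beside 7.94% for regions within 100 kb of any protein-coding gene and 9.02% for all regions. ZEB2, a zinc finger factor of melanocyte differentiation, had 3 lost of 12, and none of them had an FHT-1015 interval within 1 kb. The one 39.7 kb beyond the gene (chr2:144559604-144560103) ranked 75.2, 83.6 and 45.1 in DMSO, and the one 60.7 kb beyond it (chr2:144580583-144581082) ranked 75.2, 64.5 and 67.1. SOX6 had 3 lost of 24, TFEC, a relative of MITF, 2 of 10, SOX5 2 of 31 with 1 gained, LEF1 1 of 9 and TFAP2A 1 of 14. PAX3 had none of 9 and SOX9 none of 5. At TFAP2A, a region 32.3 kb beyond the gene (chr6:10451741-10452240) ranked 87.4, 95.2 and 91.6 in DMSO and 67.1, 69.6 and 0 in FHT-1015, so that it was weaker in every FHT-1015 sample without being lost.

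At the 16 pigmentation genes 13 of 151 regions were lost (8.61%) and 4 of the 123 regions called in all FHT-1015 samples were gained. RAB27A and RAB38, GTPases of melanosome transport, had 2 lost regions each, of 14 and 9. TYR, TYRP1, DCT, MLANA, OCA2, SLC45A2, GPR143, TRPM1 and EDNRB had 1 each. Of these, the regions counted for TYR, DCT, MLANA, SLC45A2, GPR143 and TRPM1 lay inside other genes, namely NOX4, GPC6, ERMP1, AMACR, SHROOM2 and MTMR10, and that for TYR was 84.8 kb beyond it. Gained regions were called near SLC24A5, OCA2, MC1R and GPNMB, 1 each. A lost region inside RAB27A (chr15:55279657-55280156) ranked 69.8, 77.7 and 73.0 in DMSO, with no FHT-1015 interval within 1 kb. One inside OCA2, which sets melanosome pH (chr15:27820070-27820569), ranked 87.0, 55.8 and 92.2, and 1 FHT-1015 sample had an interval within 1 kb. A region 38.0 kb beyond TYRP1 and nearer to LURAP1L, at 26.7 kb (chr9:12748035-12748534), ranked 91.9, 87.6 and 91.3 in DMSO and 35.8, 51.0 and 73.6 in FHT-1015, lower in every treated sample. A region 11.2 kb before the low-coordinate end of MLANA, the gene for Melan-A, lay inside BRD10, 0.849 kb from an end of that gene (chr9:5879433-5879932). It ranked 90.0, 88.8 and 91.4 in DMSO and 0, 57.9 and 76.4 in FHT-1015. KIT and PMEL had no lost region. The start windows of TYR, TYRP1 and MLANA were not called in any A375 sample.

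The other gene lists ranged from near the background to well under it. Lost were 20 of 214 regions (9.35%) at 15 genes of undifferentiated and neural crest-like melanoma, led by TGFBI, an extracellular matrix protein (5 of 22), TNC, tenascin C (4 of 17), and, with 3 each, NT5E (of 15) and RXRG (of 19). At TGFBI the region 27.2 kb before the gene (chr5:136001491-136001990) ranked 71.5, 77.3 and 82.9 in DMSO. Genes of TGF-beta signalling and matrix had 19 of 260 (7.31%), with 3 each at TGFBR1, COL1A2 and CD44. YAP and TEAD targets had 10 of 198 (5.05%), 3 of them at CRIM1 and 2 at AMOTL1. Cell cycle genes had 7 of 137 (5.11%), MAP kinase feedback genes 9 of 231 (3.896%), with DUSP5 and SPRY4 at 2 each, BAF subunit genes 10 of 267 (3.75%), with SMARCA2 itself at 2 of 13 and SMARCA4 at 0 of 20, and AP-1 genes 6 of 206 (2.91%), with 3 at BATF3 and 2 at ATF3. Housekeeping genes had 2 of 213 (0.939%), and 14 marker genes of other cell types had 8 of 124 (6.45%). The lists differ in how many of their regions are near gene ends. Over 1 kb from gene ends the lost shares were 13.2%, 13.1% and 13.6% for melanocyte factors, pigmentation and undifferentiated melanoma, 5.71% for AP-1 genes, 5.49% for feedback genes and 2.47% for housekeeping genes, beside 12.3% for all such regions. The 3 melanoma lists were thus near the share of all distal regions. That share also takes in regions over 100 kb from any protein-coding gene, which the lists leave out.

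Promoter windows were seldom lost, and those lost held AP-1 letters more often than others. Of 34961 RefSeq windows of 300 bp, 14691 were called in all 3 DMSO samples, of which 121 were lost (0.824%). Of the 14446 windows called in all 3 FHT-1015 samples 45 were gained (0.312%), and 13653 windows were kept. TGANTCA was found in 32 of the 121 lost windows, or 26.4% (95% exact binomial interval 18.8 to 35.2), in 6.67% of gained, 4.47% of kept and 9.28% of never-called windows, and in 7.68% of all windows. Lost windows had a median GC content of 52.0% and kept windows 67.0%. Among windows with less than 60% GC the letters were in 29.1% of 86 lost and 9.62% of 2993 kept windows. In the 33 lost windows with no FHT-1015 interval within 1 kb, 39.4% held them, and in the other 88, 21.6%. Leaving out any 1 sample gave 22.97% to 24.1%.

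Some other letters were also more frequent in lost than in kept windows. The SOX letters ACAAAG or ACAATG were in 37.2% of lost, 14.3% of kept and 33.3% of never-called windows, and among windows with less than 60% GC in 48.8% of lost and 25.1% of kept. RUNX letters TGTGGT were in 18.2% of lost, 8.71% of kept and 16.5% of never-called windows, and under 60% GC in 17.4% of lost and 14.0% of kept. The E-box letters CAGCTG were in 26.4% of lost and 16.2% of kept windows, and under 60% GC in 24.4% and 15.2%. The MITF letters TCACNTG or CACGTG were in 19.8% of lost, 16.8% of kept and 18.3% of all windows. Rarer in lost than in kept windows were GGGCGG of KLF and SP factors in 27.3% against 76.1%, CCGGAA of ETS factors in 6.61% against 31.7%, and GCGCATG of NRF1 in 0 of 121 windows against 8.51%. All letters were searched on both strands, short patterns overlap in part, and a match is not a binding site.

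Of the windows printed above, LAMB3 ranked 75.8, 81.8 and 95.4 in the DMSO samples and had an FHT-1015 interval within 1 kb. EFCAB14-AS1 ranked 75.7, 84.0 and 89.6, RIMBP2 71.9, 82.7 and 86.2 and TCERG1L-AS1 74.4, 75.4 and 66.1, with no FHT-1015 interval within 1 kb of these 3. LOC105369574 ranked 79.8, 75.5 and 86.0. LOC105369574 too had an FHT-1015 interval within 1 kb. All 5 ranked at least 66.1 in every DMSO list and were absent from every FHT-1015 list. The first MITF window ranked between 97.0 and 99.2 in all 6 samples, and the downstream one had a rank of 56.9 in DMSO replicate 1 and 0 in the other 5 samples.

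The regions lost in A375 were then looked up in the 36 samples of the other 6 lines. These samples took no part in calling a region lost, but their summits helped to place the windows. In 92-1 they were called in 36.7%, 30.8% and 27.3% in the DMSO samples and in 12.6%, 7.81% and 7.01% in the FHT-1015 samples. In MV411 the values were 18.9%, 17.8% and 21.6% against 12.4%, 12.2% and 12.2%. In RD, a rhabdomyosarcoma line, they were 17.7%, 16.3% and 15.7% against 9.07%, 6.91% and 11.3%. The DMSO samples were above the FHT-1015 samples without overlap in these 3 lines and in DU4475, and overlapped with them in 22RV1 and HCT116. Each of the 4 has an exact permutation p of 0.1, the smallest possible, which is 0.15 after Benjamini-Hochberg adjustment over the 6 lines. The mean fall over the 6 lines was 8.14 percentage points. The background pileup was lower in FHT-1015 in some of these lines, at 0.260 to 0.270 against 0.4002 to 0.495 in MV411 and at 0.0341 to 0.299 against 0.0839 to 0.430 in 92-1, and its part in the fall was not tested.

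Calls of regions kept in A375 were fewer too, with means of 56.8% in DMSO and 35.4% in FHT-1015 in 92-1, 70.6% and 60.4% in RD, and 57.4% and 51.7% in MV411. When this fall was subtracted from that of the lost regions, the mean over lines was 0.5004 percentage points, above 0 in 5 of the 6 lines, with RD at −2.76 (permutation of treatment within lines, two-sided, 100000 draws, p = 0.681). The fall in points of A375 lost regions was therefore not separated from that of kept regions by this test. With strict peaks in the other lines the value was −3.58 (permutation p = 0.0796), and without DMSO replicate 1, 2 or 3 of A375 in the choice of regions it was −1.64 to −1.04. For sets found in thinned lists it was 6.61 (permutation p = 1e-05, the smallest the draws can give). Against A375 gained regions in place of kept ones it was 7.07 (permutation p = 1e-05). Since kept regions are called far more often, a fall in points is not a fall in proportion: in 92-1 the calls went from a mean of 31.6% to 9.16% for lost and from 56.8% to 35.4% for kept regions.

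**Figure D5:**
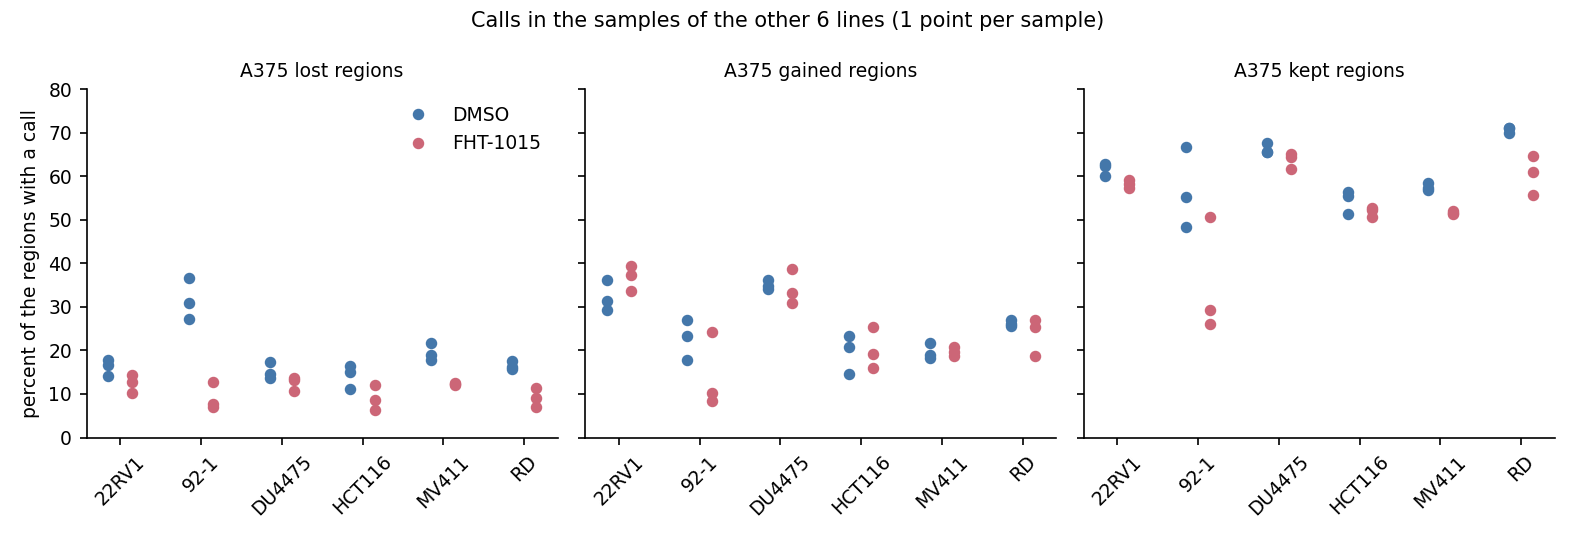
Each point is 1 sample of the other 6 lines, and the vertical axis gives the percent of the A375 lost, gained or kept regions with a call in it. For lost regions the 3 DMSO samples of 92-1 stand at 27.3% to 36.7% and the FHT-1015 samples at 7.01% to 12.6%.

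Within the other lines the A375 lost regions that all 3 local DMSO samples had were in part lost there too. In 92-1 this held for 450 of 874 regions (51.5%), against 35.1% of all regions of that line and 42.2% of its distal regions. In HCT116 it was 65 of 280 (23.2%, against 6.42% and 9.43%), in RD 134 of 451 (29.7%, against 15.9% and 23.1%), in 22RV1 113 of 411 (27.5%, against 18.0% and 22.3%) and in DU4475 48 of 441 (10.9%, against 6.44% and 8.96%). In MV411 it was 152 of 774, or 19.6%, against 19.7% of all its regions and 22% of its distal regions. Weak regions were lost more often in A375, and the shares compared here were not matched for strength. Of the 5862 regions, 4974 were lost in no other line, 814 in 1 and 74 in 2. Lost regions were seldom shared to begin with: 60.7% had calls in all DMSO samples of no other line, against 16.1% of the kept regions.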

How the data were processed

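ATAC-seq peak lists of 6 A375 samples (3 DMSO, 3 FHT-1015) were analysed, with the 36 lists of the other 6 lines as comparison. The protocol in the labels is that of Buenrostro with size selection on both sides. The submitters' processing notes name Bowtie2, Picard, MACS2, limma and HOMER and the build hg38. No version, shift of cut sites, read filter or peak threshold was given in the sources used here. For each peak the authors deposited a fold over background (ratio), a −log10 p and a −log10 q, and a score that was not used. These values were used only within their own list, as percentiles of −log10 p. Read depth is unknown; pileup and background were solved from the deposited fold and −log10 p, and pileups came out whole for 100% of peaks at a tolerance of 0.01.

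Regions were 500-bp windows around summits of all 42 lists (2141943 regions), called by an overlap of at least 100 bp. Thinned lists had pileups reduced to 0.5 of the lowest background of the line and kept peaks with −log10 p of at least 5. Gene ends came from 19974 RefSeq protein-coding genes (GRCh38.p14), without strand. A locus is a gene with 100 kb on each side. A design for motifs in 500-bp windows was replaced by RefSeq promoter windows of 300 bp, since no genome was used here; 15812 of the genes had a window. Group means were compared with exact permutation tests, two-sided. The fall in other lines used 100000 permutations within lines, with Benjamini-Hochberg adjustment over the lines. Python 3.11.15, numpy 2.4.6, pandas 2.3.3, scipy 1.17.1, numba 0.67.0 and matplotlib 3.10.9 were used, and the scripts were tested on simulated data. Alternatives covered thresholds, overlap, region making, thinning, list length, the gene-end window, the replicate block and leaving out each replicate.

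Named were the 20 firm lost and 10 firm gained regions of highest lowest rank, the 8 genes with most lost regions, each melanocyte factor and pigmentation gene with a lost or gained region, and the 3 leading genes of other lists. Regions named outside this rule (the isolated firm lost regions, those weaker without being lost, an FBXW7 promoter window and the printed windows) were chosen after their values were seen. One named region is not reported here. The members and lists were chosen with earlier results of these data known.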

Additional observations from a re-analysis of the deposited data

How the results depend on the processing

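With 3 lists a group and no read depth, a single region has no test, and an absent call can be a weak one. The 17 results were recomputed under 85 alternatives besides leaving out replicates; 42 stayed on the same side and within their limits. The cause was not tested where values moved, except that fewer required samples raise counts by construction.

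The replicate numbers did not pair the samples: same-numbered samples correlated at −0.0095, 0.10 and −0.0070. With a replicate block no call changed, and p was 0.25, the smallest possible, for the share of the 10000 strongest peaks at gene ends, and 0.517 for the 0.5004 points of the lost regions in other lines. Leaving out 1 sample at a time gave log2 differences of −0.15 to 0.14 in peaks (0.08 without DMSO replicate 2 and 0.14 without FHT-1015 replicate 1, a reversal) and −0.69 to −0.02 in strict peaks. Gene-end shares differed by 0.765 to 3.45 points for all peaks, 10.96 to 20.4 for strict and 13.7 to 17.8 for the strongest, and widths by 111 to 189 bp. Lost regions numbered 6818 to 14544, gained 1986 to 8931, firm lost 213 to 1181 and firm gained 108 to 292. Their shares within 1 kb of a gene end were 3.59% to 4.31% of lost, 39.3% to 44.6% of kept, 7.14% to 17.0% of gained and 7.62% to 14.6% of firm lost regions. Lost promoter windows numbered 158 to 296, with AP-1 letters in 22.97% to 24.1%.

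With 500 bp as the gene-end window the shares of lost, kept, gained and firm lost regions were 1.81%, 32.6%, 4.91% and 2.70%, and with 5 kb 11.8%, 53.5%, 27.3% and 23.6%. An overlap of 250 bp gave 580 gained, 323 firm lost and 167 firm gained regions, with shares of 2.88%, 51.5% and 26.0% for lost, kept and gained. Regions from the A375 lists alone gave 49 firm gained regions and shares of 44.1% for kept and 11.9% for gained. Merged intervals gave 62 firm lost and 2 firm gained. Strict peaks gave 1896 lost and 261 gained, with shares of 66.2% for kept and 47.9% for gained, and 56 lost promoter windows with AP-1 letters in 35.7%. A q below 0.05 gave 634 gained. Thinned lists gave 2516 lost and 179 gained, with shares of 6.995%, 72.0% and 53.6% for lost, kept and gained.

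In the other lines the difference reversed to −3.58 points with strict peaks, to −3.01 with thinned lists without 92-1, and to −1.64, −1.07 and −1.04 with sets found without DMSO replicates 1, 2 and 3; leaving out A375 samples gave −1.64 to 0.938. It was 6.61 for regions lost in thinned lists. The following alternatives were chosen after seeing the data: a reference of gained regions (7.07), no reference (8.14), only regions over 1 kb from a gene end (−1.52), and regions with a summit and no interval of the other group within 1 kb (2832 lost, 394 gained, 40 firm lost, 0 firm gained, with 1.77% of lost and 4.06% of gained at gene ends), and all those of promoter windows and widths.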

Other observations

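Lost regions formed 9 close groups of 3, each spanning 1.62 to 22.9 kb, and none of the 9 groups held a kept region. By the same distance limit 9.06% of lost regions had another lost region near, and 69.6% of kept regions another kept one. Kept regions formed 3579 groups of 3 or more. They were also more numerous, at 38126 against 5862 lost regions, and the part of number in these shares was not tested. Of the 9 groups of lost regions, 4 overlapped a gene: MYT1L, a neuronal transcription factor gene (chr2:1940581-1942200), MFAP3L (chr4:170004849-170014827), FAM131B (chr7:143361604-143368428) and MYBPC1 (chr12:101599207-101604436). The other 5 were nearest to GNG12, GRAMD2B, SLC12A2, TENT5A and SENP1. Among gained regions PKD1, the polycystin-1 gene, had 4 of the 5 regions that all FHT-1015 samples had, RYR2 had 4 of 16 and ZFHX3 4 of 22, beside 3.27% gained over all such regions.

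Of the 74 regions also lost in 2 other lines, the region at ANKK1 was called in all 3 DMSO and no FHT-1015 samples of 22RV1 and HCT116. One beside LAMB3 (chr1:209651179-209651678) was lost in 92-1 and DU4475, and one 117 kb from MBNL1, a splicing factor gene (chr3:152582009-152582508), in 92-1 and RD. The ZEB2 region 39.7 kb beyond the gene was lost in 22RV1 and 92-1. The share of the 10000 strongest peaks at gene ends was higher in FHT-1015 by 15.2 points in A375 and by 13.8 in 22RV1, 7.17 in 92-1, 0.187 in DU4475, 7.43 in HCT116, 21.6 in MV411 and 7.29 in RD, and no difference between A375 and another line passed the threshold (exact permutation test, adjusted p = 0.45 to 0.86).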
